A study of Mus musculus with 36 samples.

Results

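The potassium channel genes of the mouse carry symbols that begin with Kcn, and the 85 genes described here are the rows of a raw count table of 16614 rows whose gene name has that prefix. The table held 86 such rows, and 1 of them is not analysed here. By symbol, the 85 genes comprised 38 pore subunits of voltage-gated channels (Kcna, Kcnb, Kcnc, Kcnd, Kcnf, Kcng, Kcnh, Kcnq, Kcns and Kcnv), 11 auxiliary subunits of those channels (Kcnab, Kcne and Kcnip), 14 inward rectifiers (Kcnj), 10 tandem-pore-domain channels (Kcnk), 11 calcium- or sodium-activated channels with their beta subunits (Kcnma, Kcnmb, Kcnn, Kcnt and Kcnu) and Kcnrg, a regulator that is not a channel itself. The study asked what the loss of FMRP, the RNA-binding protein encoded by Fmr1, does to the stalled ribosomes that neurons store in RNA granules. Brains of 5-day-old C57Bl/6 mice, WT or FMR1 KO, were pooled, 10 to a preparation, flash frozen and homogenized, and sedimented through sucrose. Ribosome-protected fragments (RPFs) were sequenced from the pellet, the densely packed ribosome clusters that the labels call granules, and from fraction 5/6, the lighter polysomes, and RNA-seq was made from whole brain. Each of these 3 library types was made for both genotypes with the standard preparation (10 mM MgCl2, more nuclease, room temperature) and with an earlier low nuclease preparation (2.5 mM MgCl2, less nuclease, 4 °C), with 3 libraries in each of the 12 groups and 36 in all. Each RNA-seq library is from whole brains, with all cell types mixed.

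Potassium channels let potassium leave or enter the cell and so set the resting potential, the shape of the action potential and the firing rate of neurons. Voltage-gated (Kv) pore subunits assemble as tetramers with cytoplasmic beta subunits (Kcnab), KChIPs (Kcnip) or single-span Kcne subunits. Inward rectifiers and tandem-pore-domain channels hold the resting potential, and calcium- and sodium-activated channels couple firing to ion entry. Several of these channels are known to be bound or regulated by FMRP, either as proteins (the sodium-activated channel Kcnt1 and the beta subunit Kcnmb4) or as mRNAs (Kcnd2 and Kcnc1). A published list of mRNAs cross-linked to FMRP in mouse brain polyribosomes, by Darnell and colleagues, was made in other samples. It holds 9 of the 85 genes, among them Kcna2, Kcnd2, Kcnh3, Kcnma1, Kcnq3 and Kcnt1.

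Total counts ranged from 21710393 to 40174168 in the 3 WT pellet libraries of the standard preparation and from 23127381 to 36305630 in the FMR1 KO pellet libraries. The RNA-seq libraries of that preparation were deeper, with 112249206 to 147216378 counts, and the shallowest of the 36 libraries was an FMR1 KO fraction 5/6 library with 6765065. Cdk8 alone held 36.7% to 63.4% of all reads counted in a standard RPF library, and it was left out before any level was computed. Levels are given as CPM, counts scaled to the remaining total of each library. Fmr1 read 60.6 to 71.9 CPM in standard WT RNA and 16.4 to 18.1 CPM in FMR1 KO RNA, and 64.6 to 67.8 CPM in the WT pellet and 4.79 to 4.93 CPM in the FMR1 KO pellet. Against this, the library labelled WT fraction 5/6 replicate 3 read 3.17 CPM against 100.1 and 68.6 CPM in the other two, below the 5.98 to 10.7 CPM of the FMR1 KO libraries of that fraction. In 3 of the low nuclease RNA-seq libraries (WT replicate 2, FMR1 KO replicates 2 and 3) the 10 highest genes took 82.4% to 85% of the counts, against 3.66% to 4.10% in the others. All 5 of the listed neuronal markers were detected in every group. Counts over 4 Y-linked genes were 14 to 26 in the standard FMR1 KO RNA-seq and 11471 to 11844 in WT, so the sex of the pooled pups and the genotype cannot be told apart there, which touches the X-linked genes Kcnd1 and Kcne1l. Nothing in the labels separates the 3 libraries of a group beyond their number, and p-values measure the spread between these preparations.

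In the WT brain RNA of the standard preparation, channel mRNA was led by the auxiliary subunits when counts were scaled to exon length. Kcnip2, a KChIP that binds Kv4 channels, had the highest mean at 24.8 ± 0.33 CPM per kb of exon (SD, n = 3). Next came Kcnip3 at 19.3 ± 1.88, Kcnip4 at 19.0 ± 11.6 and the beta subunit Kcnab2 at 18.01 ± 2.08 CPM per kb, and these 3 did not differ beyond their spread. The SD of Kcnip4 also covers the mean of Kcnip2. Kcnip1 reached 11.1 ± 1.20 CPM per kb. Among the pore subunits, the Kv3 subunit Kcnc4 held 14.4 ± 2.00, the Kv4 subunit Kcnd2 12.8 ± 2.56, the M-current subunit Kcnq3 9.501 ± 0.20 and the Kv1 subunit Kcna3 8.93 ± 1.46 CPM per kb. Kcnmb4, the neuronal beta subunit of the BK channel, stood at 12.2 ± 0.84 CPM per kb, level with Kcnd2 within the spread. The mechanosensitive channel Kcnk2 led the tandem-pore-domain genes with 8.24 ± 0.49 CPM per kb, and Kcnj6, a subunit of G protein-gated channels, led the inward rectifiers with 5.75 ± 1.22 CPM per kb. In bulk brain, fewer cells of a type and less RNA per cell cannot be told apart.

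The pellet gave another order. Per kb of coding sequence, the standard WT pellet held 1256 ± 263 CPM of Kcnab2 and 613 ± 294 CPM of Kcnip1, far above every other channel gene. Kcng1, a silent Kv subunit, followed at 29.1 ± 22.8, the small-conductance channel Kcnn3 at 28.0 ± 18.1, Kcnab1 at 26.7 ± 1.46, Kcnip4 at 20.4 ± 3.92, Kcnip3 at 19.1 ± 2.58 and Kcnd2 at 10.2 ± 1.67 CPM per kb. The SDs of Kcng1 and Kcnn3 cover the levels of all the genes listed after them, whereas Kcnab2 and Kcnip1 lay clear above the rest. Kcnab2, Kcnip1 and Kcnn3 together carried most of the family's pellet reads: the 85 genes summed to 1890 to 2818 CPM in the 3 WT pellet libraries, and to 301 to 424 CPM without those 3 genes. In WT RNA-seq the same sums were 1818 to 1983 and 1632 to 1799 CPM. The median channel gene read 1.80 to 2.68 CPM in the WT pellet and 10.8 to 12.6 CPM in WT RNA.

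**Figure D1:**
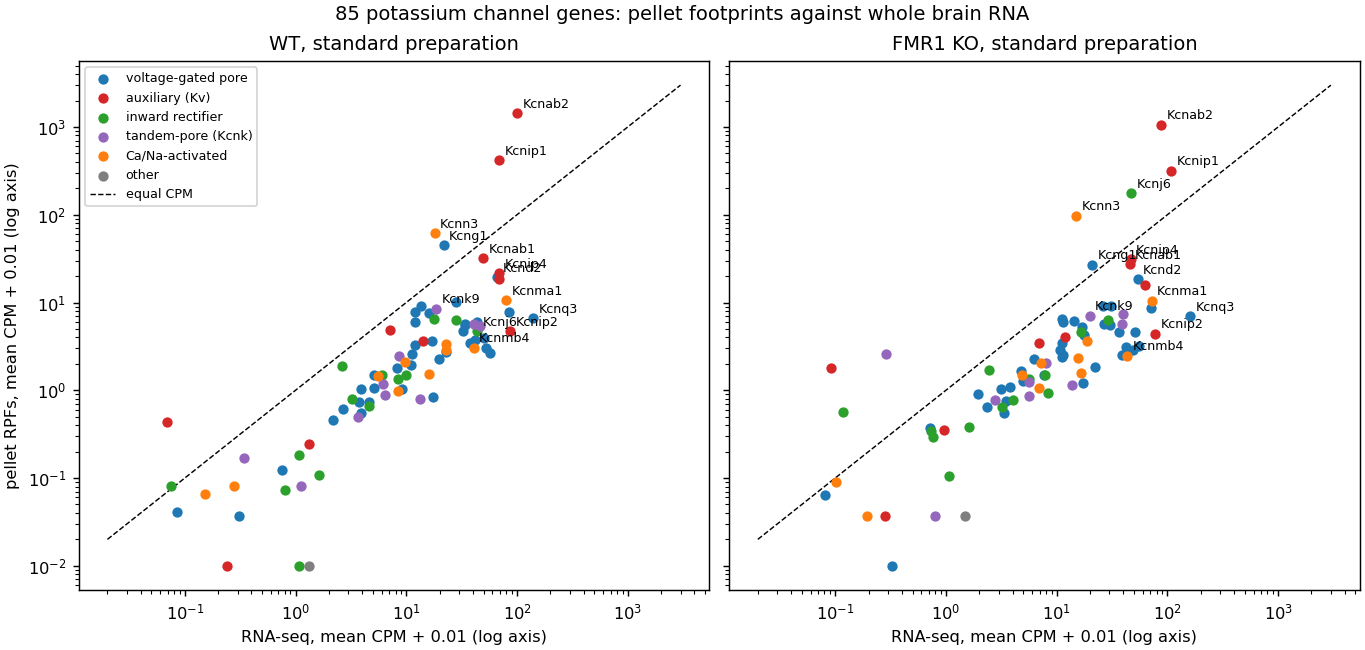
Mean CPM (plus 0.01, log axes) of each channel gene in whole brain RNA-seq (x) and in pellet RPFs (y), standard preparation, for WT and FMR1 KO; colours mark the role groups and the dashed line equal CPM. Most genes lie below the line, and Kcnab2, Kcnip1, Kcnn3 and Kcng1 are among those above it in both genotypes.

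Where on the mRNA the protected fragments piled up was deposited as lists of intervals for the 12 standard RPF libraries, each with a zenith and a height. Channel genes held 60 of these intervals, 0 to 17 per library, where a library listed 11389 to 36435 in all. They lay on 7 genes: Kcnd2 with 36 intervals in 9 libraries, Kcne1l with 12 in 7 libraries, Kcnab1 with 7 in 3 libraries, Kcnk9 with 2, and Kcnab2, Kcnq3 and Kcnv1 with 1 each. All 36 Kcnd2 intervals (23 in pellet and 13 in fraction 5/6 libraries) and 11 of the 12 Kcne1l intervals had their zenith in the coding sequence, and 1 Kcnd2 interval, in WT pellet replicate 1, began before the start codon. Kcnd2 encodes the Kv4 pore subunit that carries the dendritic A-type current, and Kcne1l is a small single-span auxiliary subunit with an open reading frame of 143 codons in 1 exon.

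The windows covered in at least 3 libraries are printed because they show which codons were protected in more than a single preparation. Each run is 30 bases of the mRNA strand, 5′ to 3′, from GRCm38, with the bases covered in every one of the named libraries in capitals. Starts were read as counted from 0, as in BED files, which the files themselves do not state, so a position may be off by 1 base.
Kcnd2 codons 40 to 44: ggactcaggACGCTCTGATAGtgctgaacg
Kcnd2 codon 90: tgaccgtgacccggAcatcttccgccacat
Kcnd2 codons 154 to 156: atgatgcagacACTGACAAtacaggagaga
Kcnd2 codons 200 to 202: ccgtctcagtcATCGCGAatgtggtggaaa
Kcne1l codons 20 to 23: gctgctggagCTGCACCATCgtggcaacgc
Kcne1l codons 107 to 108: ggaatgggtccccGCTGccatcgcatctgc

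The Kcnd2 windows all lie in exon 1 of 6 on the plus strand, in the first part of a coding sequence of 630 codons. The window at codons 40 to 44 (chr6:21216408-21216437) was listed in 5 libraries with heights of 7 to 15. These were WT pellet replicate 3, FMR1 KO pellet replicates 1 and 3, WT fraction 5/6 replicate 3 and FMR1 KO fraction 5/6 replicate 1, so both fractions and both genotypes contributed. The window at codon 90 (chr6:21216553-21216582) was listed in 4 libraries with heights of 5 to 20, though only 1 base was covered in all of them. The window at codons 154 to 156 (chr6:21216747-21216776) was listed in 3 pellet libraries with heights of 8 to 13, and that at codons 200 to 202 (chr6:21216885-21216914) in 4 libraries with heights of 3 to 12. On the minus strand of the X chromosome, the Kcne1l window at codons 20 to 23 (chrX:142305949-142305978) was listed in 4 libraries with heights of 2 to 13, and that at codons 107 to 108 (chrX:142305691-142305720) in 3 libraries with heights of 4 to 15. Over all 7 genes, 15 pairs of intervals from different libraries had zeniths within 6 nt of each other and 5 pairs within 3 nt, so that 24 of the 60 intervals had a match within 6 nt in another library. No position recurred in all 3 libraries of a group, which WT fraction 5/6 replicate 2 and FMR1 KO fraction 5/6 replicate 3 could not show, with 0 channel intervals each, and FMR1 KO pellet replicate 2 had 1. No test of position between WT and FMR1 KO was made on so few.

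**Figure D2:**
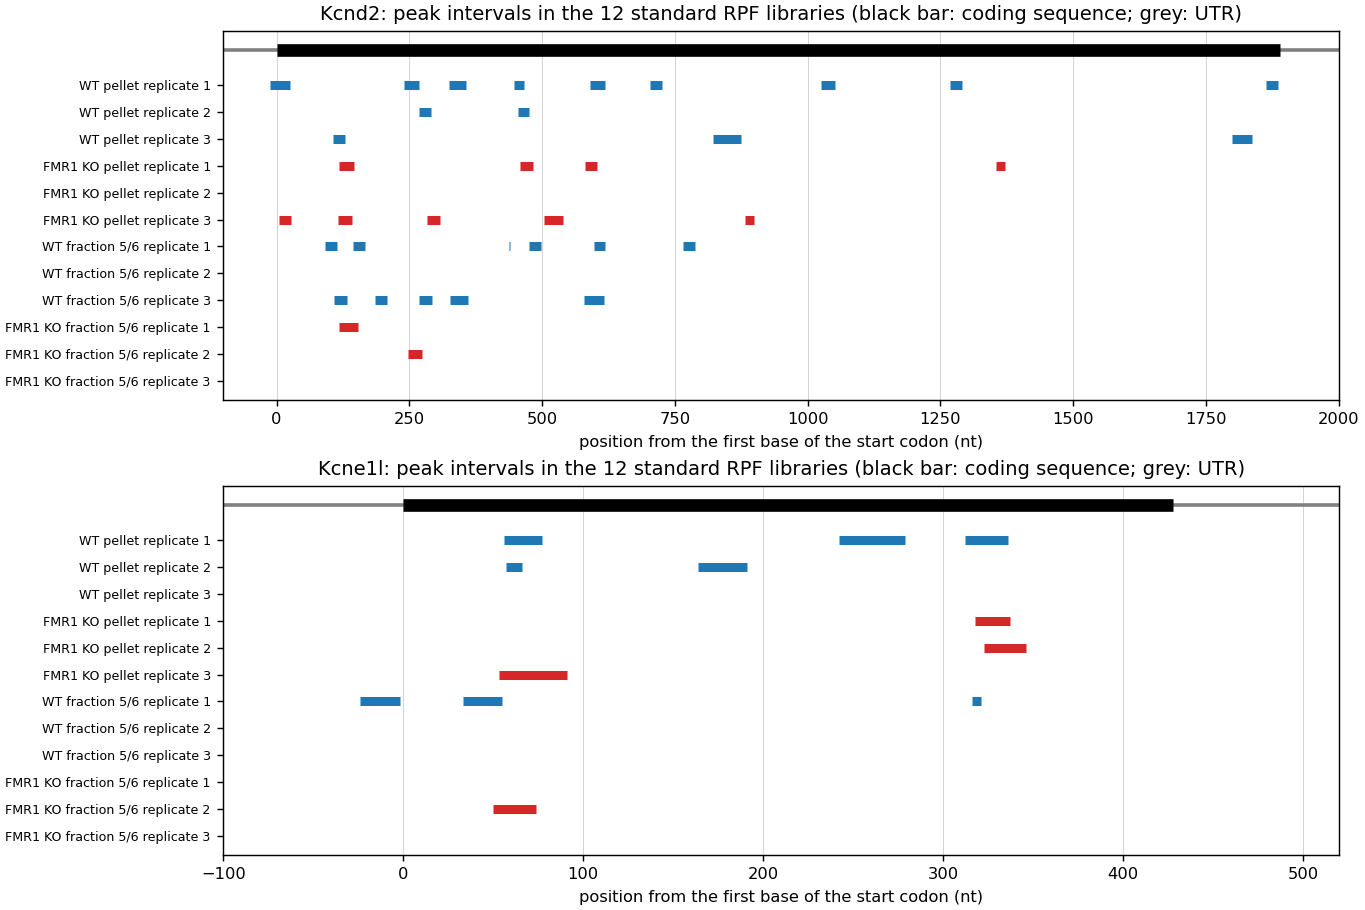
Intervals on the Kcnd2 and Kcne1l mRNAs in the 12 standard RPF libraries, with position in nt from the start codon on x and 1 row per library. The Kcnd2 intervals, from 9 libraries, have their zeniths in the coding sequence, and 2 of the fraction 5/6 libraries have no channel interval.

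The 7 genes with intervals ranked from 1 to 32 of 85 in their counts over the 12 libraries, and none of the 53 genes below rank 32 had an interval. Within the upper 32 the number of intervals did not follow the counts, and 25 of them had none. Over the 12 libraries Kcnab2 had 195700 counts and 1 interval, Kcnip1 135049 counts and 0 intervals, and Kcnn3 17213 counts and 0, whereas Kcnd2 had 2805 counts and 36 intervals. Kcnk2 and Kcnj6 also had more counts than Kcnd2, with 0 intervals, but 18301 of the 19650 counts of Kcnk2 and 7943 of the 8585 counts of Kcnj6 came from 1 library each, and without it they had 1349 and 642. Some of these genes overlap others: Kcnab2 overlaps Nphp4, and Kcnip1 overlaps Kcnmb1 and 4930469K13Rik. Across the whole table, in 265 of 265 pairs in which a gene lies inside another (both counted, at least 200 counts), the outer gene had at least the count of the inner one, including 153 pairs on opposite strands. What share of the counts of Kcnab2 and Kcnip1 comes from RNAs within their bodies was not tested, and their level as channel mRNA is uncertain.

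The level of several of these genes was set by a single library. Kcnk2 read 19.1, 33.9 and 1489 CPM in the 3 standard WT fraction 5/6 libraries, the high value being in the library whose Fmr1 level went against its label. Kcnj6 read 515, 4.87 and 6.33 CPM in the standard FMR1 KO pellet, against 3.34, 5.32 and 5.37 CPM in the WT pellet. Both genes were thus high in 1 library of the group, with the other two far below it. Kcng1 read 57.3, 5.15 and 72.1 CPM in the WT pellet and 5.77, 68.3 and 6.41 CPM in the FMR1 KO pellet. Kcnn3 read 32.0, 27.3 and 1703 CPM in the FMR1 KO fraction 5/6. In the low nuclease pellet Kcng2 read 2.23, 283 and 2.52 CPM in WT and Kcnma1 27.0, 78.8 and 1537 CPM in FMR1 KO. Within a group the high library differed from gene to gene, as with FMR1 KO pellet replicate 1 for Kcnj6 and replicate 2 for Kcng1.

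**Figure D3:**
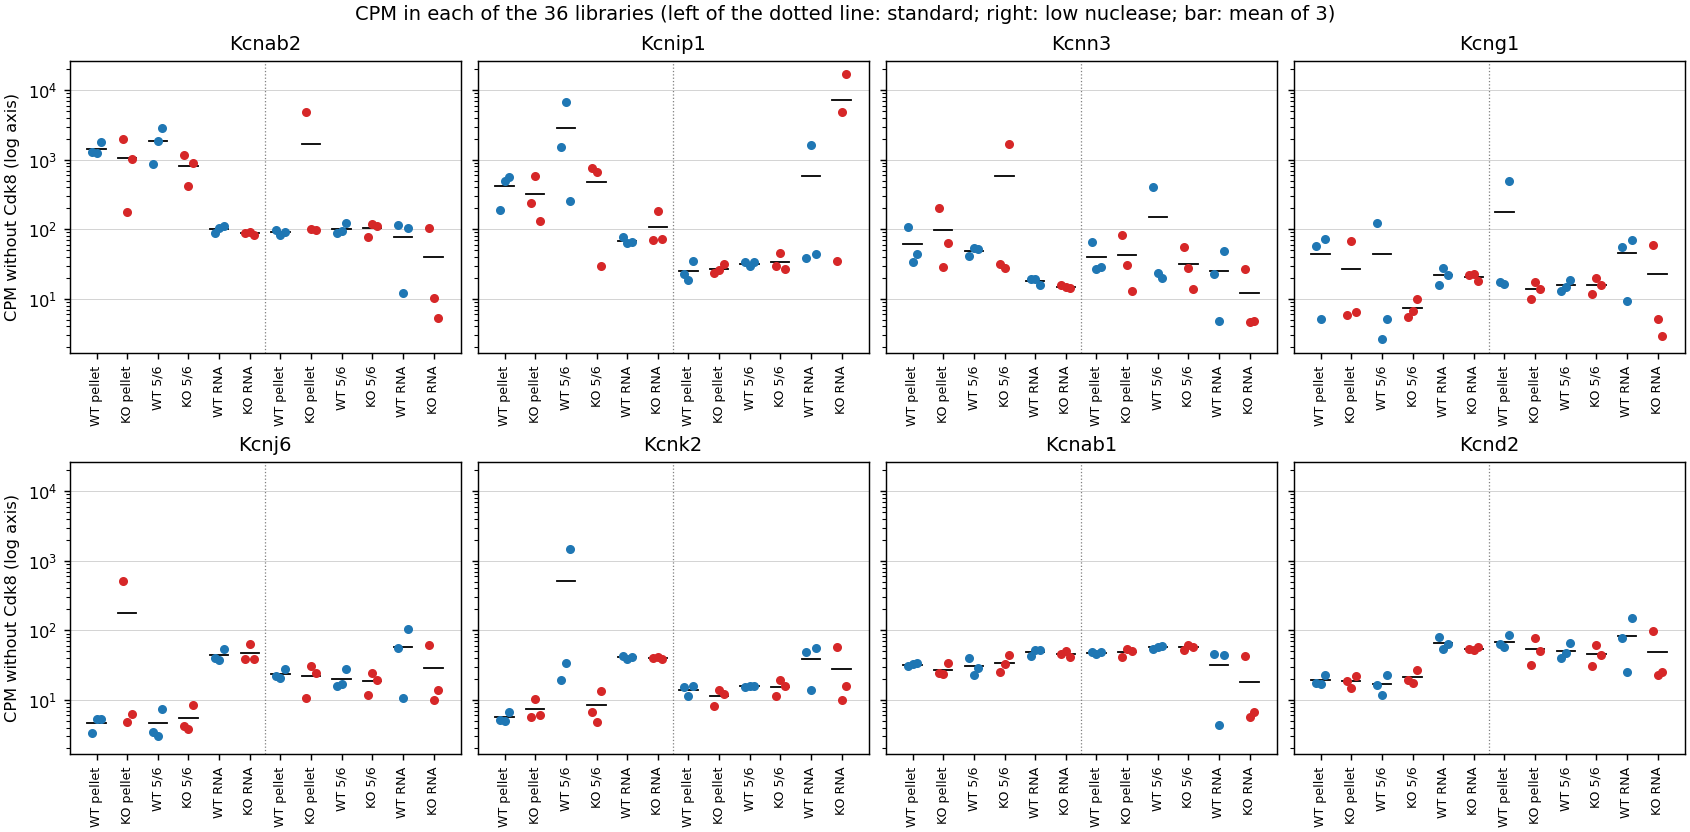
CPM (log axis) of Kcnab2, Kcnip1, Kcnn3, Kcng1, Kcnj6, Kcnk2, Kcnab1 and Kcnd2 in each of the 36 libraries; points are libraries, bars the mean of 3, and the dotted line separates the preparations. Kcnj6 is high in 1 FMR1 KO pellet library and Kcnk2 in 1 WT fraction 5/6 library, while Kcnab1 and Kcnd2 stay close together among the standard pellet libraries.

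In the standard preparation, the occupancy of an mRNA, pellet RPFs against whole brain RNA, was lower than that of the average gene for most channels. Occupancy with low nuclease was not tested. Fold changes are log2 values after TMM scaling (edgeR, quasi-likelihood test), and so are relative to the bulk of genes, and adjusted p-values are Benjamini-Hochberg over all genes tested, with calls at 0.05. In WT, 82 channel genes had enough counts to test, and 60 were called: 7 higher and 53 lower in the pellet than in RNA. Of all 16200 genes tested, 65.3% were called, 31.1% higher and 34.2% lower, so the number of channel genes called is near the background and their split lies on the lower side. Their median log2 occupancy was -1.43, beside -0.10 over all genes. All 53 genes called lower had each of the 3 pellet libraries below each of the 3 RNA-seq libraries in CPM. So did 17 tested channel genes that were not called, and the share over all genes was not counted. Scaled by library size alone, the median over all genes was -1.26 and that of the channel genes -2.59, with 3 channel genes called higher and 74 lower, and 1416 genes called higher of 12373 called.

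The Kv pore subunits had 26 of 37 tested genes lower and 1 higher, with a median of -1.41. Kcnq3, a subunit of the M-channel that dampens repetitive firing, read 143, 138 and 139 CPM in the 3 WT RNA-seq libraries and 5.41, 6.79 and 7.55 CPM in the WT pellet, a log2 occupancy of -3.26 ± 0.16, SE, adjusted p = 7.09e-06. The pellet and RNA libraries of this gene were far apart, with no overlap. Among the fast-spiking Kv3 subunits, Kcnc4 read 44.7, 59.0 and 54.5 CPM in RNA and 2.40, 3.43 and 3.19 CPM in the pellet (-3.00 ± 0.18, SE, adjusted p = 1.14e-05), and Kcnc1 43.3, 52.9 and 56.2 CPM and 3.48, 3.27 and 5.12 CPM (-2.52 ± 0.23, SE, adjusted p = 5.72e-05). The axonal Kv1 subunit Kcna2 read 38.7, 36.9 and 49.1 CPM and 2.82, 3.27 and 5.20 CPM (-2.32 ± 0.26, SE, adjusted p = 0.000175). All 3 were lower in every pellet library.

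Kcnd2 was the least reduced of the pore subunits called lower. It read 80.2, 54.3 and 63.1 CPM in WT RNA and 17.8, 17.2 and 22.9 CPM in the WT pellet, with a log2 occupancy of -0.61 ± 0.21, SE, adjusted p = 0.035, and the call was lost without pellet replicate 1 or 2 or RNA-seq replicate 1 or 3. So the gene with the most coding intervals was itself slightly below the average gene in occupancy. Among the pore subunits that were not called were Kcna4 (0.18 ± 0.27), Kcnf1 (0.09 ± 0.32), Kcnv1 (0.53 ± 0.22) and Kcna6 (-0.30 ± 0.24), log2 ± SE, and with library size alone the first 3 turned to -0.99, -1.09 and -0.63. Kcnf1 and Kcnv1 are silent subunits that modify Kv2 channels, and Kcna4 and Kcna6 are Kv1 subunits. Kcng1 was the single pore subunit called higher (2.25 ± 0.81, SE, adjusted p = 0.04) at 57.3, 5.15 and 72.1 CPM in the pellet, and the call was lost on leaving out pellet replicate 1 or 3 or any RNA-seq library. Kcnh1, at 1.83, 20.8 and 4.86 CPM in the WT pellet with its high value in 1 library, was not called.

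The auxiliary subunits were mixed, with 5 of 11 higher, 4 lower and a median of -0.53. Kcnab2 read 87.8, 103 and 111 CPM in RNA and 1276, 1255 and 1787 CPM in the pellet (5.01 ± 0.26, SE, adjusted p = 7.3e-06), and Kcnip1 77.3, 63.5 and 65.5 CPM and 189, 501 and 563 CPM (3.76 ± 0.41, SE, adjusted p = 0.000145), both higher in every pellet library. These are the genes with the most pellet counts and 1 and 0 listed intervals. Kcnab1 and Kcnab3, the other Kv beta subunits, were called higher only relative to the bulk of genes: Kcnab1 read 43.2, 52.2 and 52.2 CPM in RNA and 30.3, 32.4 and 33.8 CPM in the pellet (0.55 ± 0.13, SE, adjusted p = 0.00732), and Kcnab3 6.17, 7.01 and 7.99 CPM and 4.65, 5.15 and 4.78 CPM (0.62 ± 0.17, SE, adjusted p = 0.0128). In CPM all 3 pellet libraries of both genes were below the RNA-seq libraries, and with library size alone the log2 values were -0.61 and -0.54. The KChIPs parted: Kcnip2 fell from 85.5, 87.5 and 85.6 CPM to 4.51, 5.56 and 3.94 CPM (-3.06 ± 0.12, SE, adjusted p = 4.67e-06), Kcnip3 less (-0.75 ± 0.11, SE, adjusted p = 0.000638), and Kcnip4, at 117, 52.5 and 37.7 CPM in RNA and 19.4, 18.7 and 26.2 CPM in the pellet, was not called (-0.53 ± 0.42, SE, adjusted p = 0.299). Kcne1, called higher (3.98 ± 1.35, SE, adjusted p = 0.0331), rested on 0.423, 0 and 0.839 CPM in the pellet against 0, 0.0145 and 0.163 CPM in RNA, and was lost without pellet replicate 1 or 3 and in DESeq2. Kcne1l was lower (-0.80 ± 0.30, SE, adjusted p = 0.0453).

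Among the inward rectifiers, 8 of 13 tested were lower, 0 were higher and the median was -1.56. The G protein-gated subunits Kcnj3, Kcnj6 and Kcnj9 were all lower (Kcnj6 -2.09 ± 0.23, SE, adjusted p = 0.000138), and Kcnj10, the astrocytic Kir4.1 channel, read 17.2, 13.9 and 22.1 CPM in RNA and 5.31, 5.89 and 8.05 CPM in the pellet and was not called (-0.30 ± 0.24, SE, adjusted p = 0.301). The tandem-pore-domain genes had 7 of 10 lower and 0 higher, with a median of -1.70. Kcnk3 read 11.9, 13.6 and 14.1 CPM in RNA and 0.611, 0.900 and 0.839 CPM in the pellet, where it rests on few reads (-2.95 ± 0.22, SE, adjusted p = 2.26e-05). Kcnk9, a related acid-sensitive channel, had 12.5, 17.7 and 25.6 CPM in RNA and 6.39, 6.22 and 12.8 CPM in the pellet (0.04 ± 0.38, SE, adjusted p = 0.929) and was not called. In CPM both were below their RNA in the mean, with library size alone Kcnk9 stood at -1.14, and the difference between the pair was not tested.

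Of the calcium- and sodium-activated genes, 7 of 10 tested were lower and 1 higher, with a median of -1.67. The BK pore subunit Kcnma1 read 101, 71.1 and 68.2 CPM in RNA and 9.59, 9.49 and 12.7 CPM in the pellet (-1.76 ± 0.23, SE, adjusted p = 0.000353), and its partner Kcnmb4 37.4, 42.3 and 42.2 CPM and 1.97, 4.83 and 2.35 CPM (-2.63 ± 0.27, SE, adjusted p = 0.000102). Kcnt1, the Slack channel, was lower by less (-1.08 ± 0.28, SE, adjusted p = 0.0116). Every pellet library of these 3 was under every RNA-seq library. Kcnn3 was the gene called higher (2.94 ± 0.45, SE, adjusted p = 0.000786), at 107, 34.0 and 43.6 CPM in the pellet and 19.1, 19.3 and 15.8 CPM in RNA, while its relatives Kcnn1 and Kcnn2 were lower (-2.25 ± 0.31 and -1.57 ± 0.30, log2 ± SE). No pellet count at all was found in WT for Kcnrg, Kcnj14 and Kcne4. Against a floor of 3 counts over the 3 pellet libraries, their CPM was at least 19.8-fold, 16.2-fold and 3.45-fold lower than in RNA. All 9 genes of the Darnell list were lower, with a median of -2.28.

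**Figure D4:**
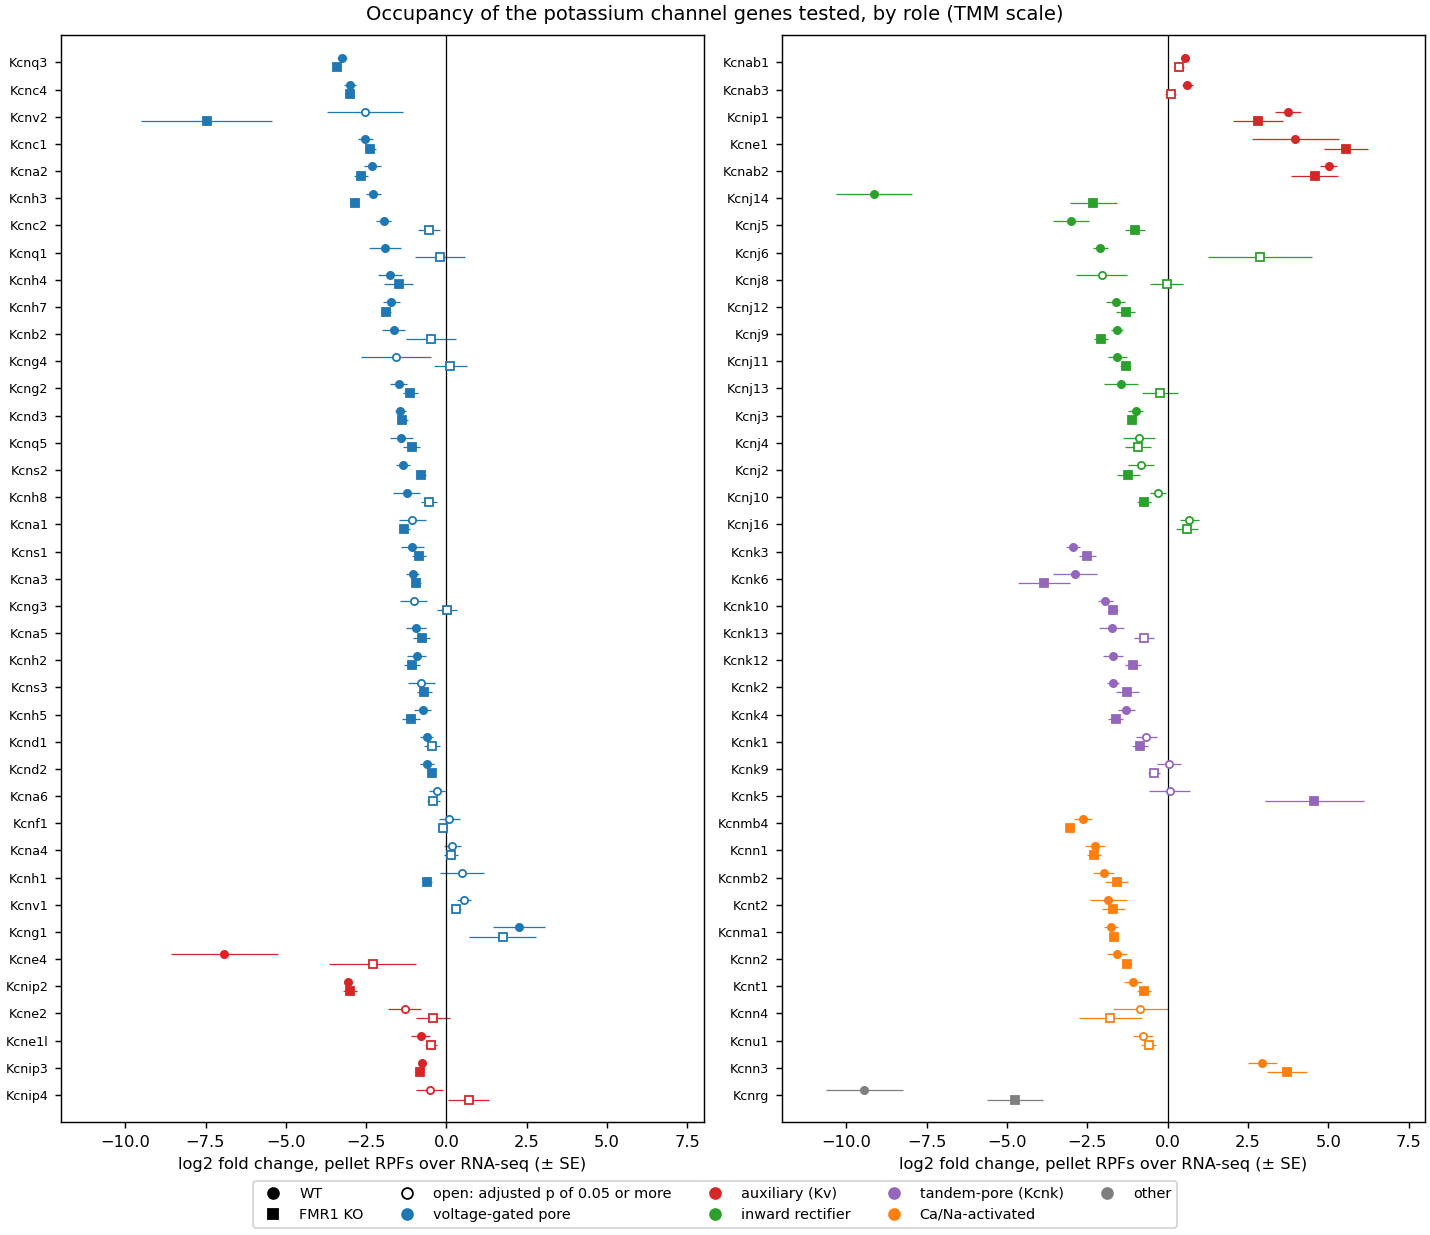
Log2 occupancy (pellet against RNA-seq, standard preparation, TMM scaled, ± SE) of the channel genes tested, other than 4 not shown here, by role group; circles are WT, squares FMR1 KO, and open symbols have an adjusted p of 0.05 or more. Most genes lie below 0 in both genotypes, and Kcnab2, Kcnip1 and Kcnn3 are among those above it.

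In FMR1 KO brains, of 82 genes tested, 55 were called, 5 higher and 50 lower, where 66.9% of all genes were called (31.8% higher and 35.2% lower). The median log2 occupancy was -0.98, beside -0.07 over all genes, and with library size alone the medians were -2.09 and -1.17, with 5 channel genes higher and 70 lower and 1285 genes higher of 11329 called. The pore subunits had 25 of 37 lower and 0 higher (median -0.95), the auxiliary subunits 2 of 11 lower and 3 higher (0.10), the inward rectifiers 8 of 13 lower (-1.005), the tandem-pore-domain genes 7 of 10 lower and 1 higher (-1.17), and the calcium- and sodium-activated genes 7 of 10 lower and 1 higher (-1.63). Each of these 5 medians was above that of the same group in WT, and that of the auxiliary subunits was of the other sign. These differences between the medians were not tested. Kcnq3 read 159, 171 and 154 CPM in RNA and 6.42, 5.98 and 8.65 CPM in the pellet (-3.42 ± 0.14, SE, adjusted p = 8.56e-06), and Kcnmb4 44.2, 40.9 and 45.5 CPM and 3.05, 1.76 and 2.56 CPM (-3.05 ± 0.13, SE, adjusted p = 8.56e-06). These M-channel and BK subunits were again below their RNA in every pellet library.

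Also lower in FMR1 KO were Kcnd2 (-0.44 ± 0.08, SE, adjusted p = 0.0027), Kcnma1 (-1.68 ± 0.08, SE, adjusted p = 1.04e-05) and the astrocytic Kcnj10 (-0.73 ± 0.23, SE, adjusted p = 0.0245). The 9 Darnell-list genes were all lower, with a median of -2.47. Those called higher were Kcnab2 at 1996, 178 and 1012 CPM in the pellet (4.58 ± 0.73, SE, adjusted p = 0.00129), Kcnip1 at 241, 576 and 134 CPM (2.82 ± 0.78, SE, adjusted p = 0.0158), Kcnn3 at 201, 28.6 and 62.8 CPM (3.72 ± 0.62, SE, adjusted p = 0.00152), Kcne1 at 0.973, 2.79 and 1.52 CPM (5.55 ± 0.69, SE, adjusted p = 0.000387) and Kcnk5 at 0.130, 7.50 and 0.0801 CPM (4.57 ± 1.55, SE, adjusted p = 0.0352). All 5 varied widely among the 3 pellet libraries, and Kcnk5 was high in 1 of them. Without pellet replicate 2 the log2 value of Kcnk5 was -0.42, and the Kcnip1 call was lost without RNA-seq replicate 1 or 3. Kcnv2, a silent subunit best known from the retina, had 0 counts in the FMR1 KO pellet, at least 4.31-fold less CPM than in RNA. Kcnrg and Kcnk6 were called lower with 1 count each over the 3 pellet libraries.

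The pellet was compared with fraction 5/6 to ask which mRNAs are enriched among the densest ribosomes. In the standard WT preparation, 0 of 63 channel genes tested were called, where 0.0228% of all genes were, and the median SE of their log2 enrichment was 0.39. At an unadjusted p under 0.05 there were 5 (6.24% of all genes), and DESeq2 called 1, Kcnc2. The median log2 enrichment was 0.04, beside -0.00 over all genes, and it ran from -0.14 to 0.17 without single libraries. Kcnc2, a Kv3 subunit of fast-spiking interneurons, had the smallest p: it read 2.3, 1.80 and 2.77 CPM in the pellet and 9.87, 11 and 5.21 CPM in fraction 5/6 (-1.97 ± 0.46, log2 ± SE, adjusted p = 0.64). Without WT fraction 5/6 replicate 3, the library at odds with its Fmr1 label, 2 channel genes were called lower in the pellet, Kcnc2 (-2.28) and Kcnk2. What share of all genes that fit called is not given here. In FMR1 KO, 1 of 65 was called, where 11.5% of all genes were (10.1% higher), and 7 had an unadjusted p under 0.05 (30.2% of all genes). The gene called was Kcnk10, a mechanosensitive tandem-pore-domain channel, at 6.87, 3.67 and 6.57 CPM in the pellet and 2.68, 4.02 and 4.90 CPM in fraction 5/6 (0.89 ± 0.21, SE, adjusted p = 0.0427). The call was lost without any 1 of the pellet libraries or fraction 5/6 replicate 1 or 3. The median of the channel genes was 0.20, beside 0.01, and it ran from 0.03 to 0.23 without single libraries.

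With the low nuclease preparation the enrichment of WT channel mRNAs was called for 5 of 79 genes, all higher in the pellet, where 22.9% of all genes were called (14.3% higher), and 21 channel genes had an unadjusted p under 0.05 (40.4% of all genes). Their median was 0.38, beside -0.02 over all genes. The 5 were Kcnk10, from 8.10, 11.2 and 15.1 CPM in fraction 5/6 to 19.7, 18.7 and 24.3 CPM in the pellet (0.99 ± 0.21, SE, adjusted p = 0.0261), Kcnd1 (0.93 ± 0.26, SE, adjusted p = 0.0479), and the subunits Kcnf1 (0.69 ± 0.17, SE, adjusted p = 0.0333), Kcnv1 (0.53 ± 0.15, SE, adjusted p = 0.0462) and Kcna4 (0.38 ± 0.10, SE, adjusted p = 0.039). Kcnd1 is a Kv4 subunit, and the last 3 are among the pore subunits not called in WT occupancy. Libraries of the same number deviated together here, and with the number as a block 26 channel genes were called, all higher, where that fit called 32.2% of all genes (18.9% higher). No channel gene was called on leaving out any pellet library or fraction 5/6 replicate 1 or 2, and 9 were without fraction 5/6 replicate 3. These left-out fits are given without their shares over all genes. In FMR1 KO, 0 of 77 were called, where 20% of all genes were. The number at an unadjusted p under 0.05 was 7 (37.1% of all genes), DESeq2 called 3, and the median was 0.17, beside -0.03. Without single libraries that median ran from -0.08 to 0.36, so its sign is not stable. With the number as a block, though here it did not pair the libraries, 9 were called, 7 of them higher, where that fit called 30.1% of all genes (16% higher). The smallest p belonged to Kcng2 (-1.83 ± 0.59, log2 ± SE). Whether enrichment differs between the preparations was not tested.

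The clearest difference in the pellet was between the preparations. In WT, 54 of 71 channel genes tested were called between the standard and the low nuclease pellet, 2 higher and 52 lower with the standard preparation, where 39% of all genes were called (15% higher and 24% lower). The median was -1.46, beside -0.04 over all genes. All 52 had every standard library below every low nuclease library in CPM. So had 10 tested channel genes that were not called, and the share over all genes was not counted. Kcnc1 read 36.7, 32.8 and 37.7 CPM in the low nuclease and 3.48, 3.27 and 5.12 CPM in the standard WT pellet (-2.64 ± 0.23, SE, adjusted p = 0.0014), and Kcnq3 46.2, 37.1 and 49.9 CPM and 5.41, 6.79 and 7.55 CPM (-2.23 ± 0.19, SE, adjusted p = 0.00128). These Kv3 and M-channel subunits were also called lower in occupancy, which shares the standard pellet libraries. The tandem-pore-domain genes Kcnk12 and Kcnk3 (-2.37 ± 0.28 and -2.34 ± 0.21, log2 ± SE) and the atrial and neuronal G protein-gated subunit Kcnj5 (-2.84 ± 0.49) fell by like amounts, as did Kcnma1 (-2.05 ± 0.24) and Kcnt1 (-2.13 ± 0.40).

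In the opposite direction, Kcnip1 rose from 22.8, 18.7 and 35.0 CPM with low nuclease to 189, 501 and 563 CPM (4.56 ± 0.51, SE, adjusted p = 0.00296) and Kcnab2 from 98.1, 82.5 and 92.8 CPM to 1276, 1255 and 1787 CPM (4.52 ± 0.25, SE, adjusted p = 0.000483). With low nuclease Kcnab2 thus read in the WT pellet about what it read in standard WT RNA. The median channel gene read 7.39 to 10.8 CPM in the low nuclease WT pellet and 1.80 to 2.68 CPM in the standard WT pellet. In standard WT RNA it read 10.8 to 12.6 CPM, so the low standard occupancy may not hold for the low nuclease pellet, which was not tested. Kcnab1 read 49.2, 45.5 and 48.3 CPM and 30.3, 32.4 and 33.8 CPM and was not called (-0.04 ± 0.10, log2 ± SE), and likewise Kcnip3 (-0.15 ± 0.13) and Kcnip4 (-0.45 ± 0.28), whereas Kcnip2 fell (-1.01 ± 0.13). All 9 Darnell-list genes fell, with a median of -2.05. Leaving out standard replicate 1 or 2 or low nuclease replicate 3 left 31, 34 or 35 channel genes called. Nuclease amount and product, magnesium, temperature and the way the digested ribosomes were recovered changed together, so their parts cannot be told apart.

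In FMR1 KO, 20 of 73 were called, 2 higher and 18 lower, where 17% of all genes were (7.42% higher and 9.53% lower), and the median was -0.96, beside -0.02. Among the lowest were Kcnj9, a brain G protein-gated subunit, at 2.47, 8.33 and 5.78 CPM with low nuclease and 0.778, 0.878 and 1.12 CPM with the standard preparation (-2.04 ± 0.47, SE, adjusted p = 0.0371), Kcnq3 (-2.01 ± 0.34, SE, adjusted p = 0.018), Kcnc1 (-2.0 ± 0.22, SE, adjusted p = 0.00552) and Kcnn1 (-1.97 ± 0.22, SE, adjusted p = 0.00567). Of the genes called higher, Kcnip1 read 23.7, 25.9 and 31.9 CPM and 241, 576 and 134 CPM (4.25 ± 0.74, SE, adjusted p = 0.0192), and Kcne1 0.262, 0.433 and 0.562 CPM and 0.973, 2.79 and 1.52 CPM (2.65 ± 0.60, SE, adjusted p = 0.0363). Kcnab2 was not called, with 4786, 99.9 and 96.2 CPM in the low nuclease pellet (-0.36 ± 1.61, log2 ± SE). Of the Darnell list, 6 of 9 fell, with a median of -1.71. The count moved with single libraries: it was 2, 10 and 5 without standard replicate 1, 2 and 3, and 44, 8 and 4 without low nuclease replicate 1, 2 and 3. Whether the share of all genes called moved likewise is not given here. In CPM, 38 tested genes that were not called also had every standard library below every low nuclease one. How many of all genes lay apart in this way was not counted. With library size alone, 62 channel genes were called in WT (2 higher, with 295 genes higher of 7419 called) and 50 in FMR1 KO (2 higher, 291 of 3919).

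**Figure D5:**
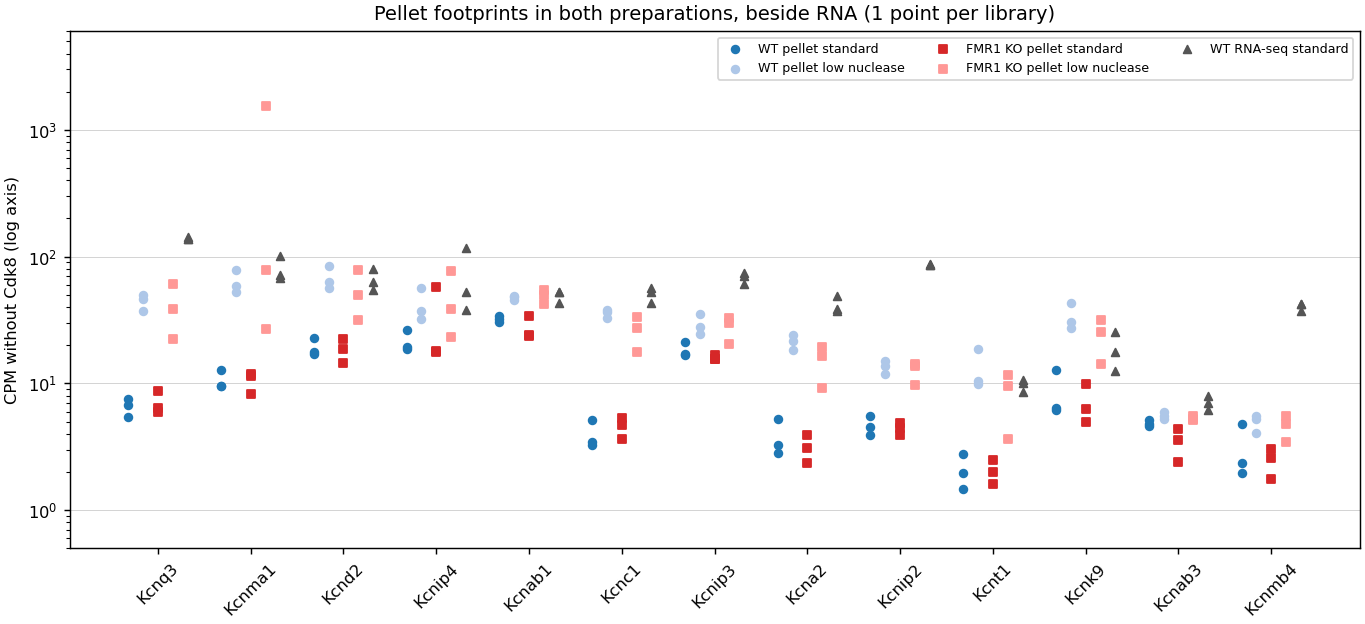
Pellet CPM of named channel genes in the standard and low nuclease preparations of both genotypes, beside WT RNA-seq; points are libraries. For Kcnc1 and Kcnq3 the standard pellet libraries lie below the low nuclease ones in both genotypes, and for Kcnab1 in WT they lie closer together.

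With edgeR and each comparison fitted on its own groups, no channel gene was called between genotypes, which does not show that levels were the same. The median SE of the log2 difference over the channel genes tested was 0.18 in standard RNA-seq, 0.35 in the standard pellet and 0.35 in fraction 5/6, so differences were less precisely measured in the RPF libraries. In standard RNA-seq, 0 of 85 were called between FMR1 KO and WT, where 0.0735% of all genes were. At an unadjusted p under 0.05 there were 3 (2.59% of all genes), and DESeq2 called 0. The median was -0.09, beside 0.00 over all genes. Kcnt1 had the smallest p: it read 10.1, 10.6 and 8.63 CPM in WT and 7.92, 5.46 and 8.25 CPM in FMR1 KO (-0.42 ± 0.17, log2 ± SE, unadjusted p = 0.0352, adjusted p = 0.999). Kcnq3 (0.24 ± 0.10) and Kcng2 (-0.36 ± 0.16) were the other two. The BK beta subunit Kcnmb4 read 37.4, 42.3 and 42.2 CPM in WT and 44.2, 40.9 and 45.5 CPM in FMR1 KO (0.13 ± 0.10), and Kcnd2 80.2, 54.3 and 63.1 CPM and 53.8, 51.6 and 56.8 CPM (-0.26 ± 0.14). The WT and FMR1 KO libraries of both overlapped.

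In the standard pellet, 0 of 64 were called, where 0.0152% of all genes were, with 6 at an unadjusted p under 0.05 (5.34% of all genes) and 0 in DESeq2. Kcnc2 had the smallest p. It read 2.3, 1.80 and 2.77 CPM in WT and 4.54, 6.86 and 4.17 CPM in FMR1 KO, a log2 difference of 1.27 ± 0.42 (SE, unadjusted p = 0.0227, adjusted p = 0.863), so each FMR1 KO library was above each WT library. Kcnj6 (5.14 ± 1.88) rested on the 1 high FMR1 KO library given above. Of the genes tied to FMRP, Kcnt1 differed by -0.02 ± 0.32, Kcnmb4 by -0.25 ± 0.34, Kcnd2 by -0.04 ± 0.18, Kcnc1 by 0.22 ± 0.26 and Kcnma1 by 0.01 ± 0.19, log2 ± SE, with the 9 Darnell-list genes at a median of -0.02. Each of these 5 differences was smaller than 2 times its SE.

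In fraction 5/6 of the standard preparation, 0 of 65 were called, and 0% of all genes, with 1 at an unadjusted p under 0.05 (4.56% of all genes) and 0 in DESeq2. That gene was Kcnk2 (-6.16 ± 1.79, log2 ± SE), and without WT fraction 5/6 replicate 3 its value was -2.25. The change in occupancy between genotypes was called for 0 of 83 genes, where 0.0669% of all genes were called, with 6 at an unadjusted p under 0.05 (6.13% of all genes) and 0 in DESeq2, and the median was 0.20, beside -0.01. Without single libraries this median ran from 0.04 to 0.30. The smallest p was again that of Kcnc2 (1.45 ± 0.45, log2 ± SE, adjusted p = 0.737), which shares its pellet libraries with the comparison above. The change in enrichment was called for 0 of 68 genes and 0% of all genes, with 6 at an unadjusted p under 0.05 (5.56% of all genes). DESeq2 called 1, Kcnk2 (6.64 ± 1.82 in edgeR, log2 ± SE), and without WT fraction 5/6 replicate 3 the edgeR value was 2.74.

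With low nuclease, 0 of 77 were called in the pellet (0.0197% of all genes), 0 of 79 in fraction 5/6 (0.0445%) and 0 of 82 in RNA-seq (0%), with 3, 1 and 1 at an unadjusted p under 0.05 (4.34%, 8.55% and 2.19% of all genes) and 0 in DESeq2 in each. The channel median was -0.19 in the pellet, beside 0.00 over all genes, with 57 of the 77 values negative and 20 positive. In fraction 5/6 it was -0.00 beside -0.00, and in RNA-seq -0.21 beside -0.01. The medians of the 9 Darnell-list genes were -0.40, -0.10 and -0.18. Without single libraries the channel median in the pellet ran from -0.48 to 0.05. These medians were not tested. The smallest p in the pellet was that of Kcnab2 (4.36 ± 1.70, log2 ± SE), at 98.1, 82.5 and 92.8 CPM in WT and 4786, 99.9 and 96.2 CPM in FMR1 KO, which is 1 high library. In fraction 5/6 it was Kcnip2, at 13.7, 13.7 and 16.2 CPM and 17.2, 22.9 and 17.6 CPM (0.39 ± 0.13), where the difference is small but the libraries are close together. In RNA-seq it was Kcnip4 (1.56 ± 0.69), and its sign turned without the 3 libraries dominated by 10 genes (-0.99). With all 12 groups in 1 fit, 1 channel gene was called between genotypes in the standard pellet (Kcnj6), 1 in standard fraction 5/6 (Kcnk2) and 3 in the low nuclease pellet (Kcnab2, Kcng2 and Kcnma1), each of them a gene with 1 high library in a group of that library type, and 0 in RNA-seq of either preparation or low nuclease fraction 5/6.

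A list of 20 partners of the channels outside the family was counted in the same fits. It holds the Kv4 partners Dpp6 and Dpp10, the Kv1 clustering proteins Cntnap1, Cntnap2, Adam22 and Lgi1, the Kv2 partner Amigo1, the scaffolds Ank3, Sptbn4 and Dlg4, the KATP sulfonylurea receptors Abcc8 and Abcc9, the BK gamma subunits (Lrrc26, Lrrc38, Lrrc52 and Lrrc55) and the related Hcn channels. In WT occupancy 8 of 19 tested were lower (34.2% of all genes) and 0 higher, with Amigo1 at -2.46 ± 0.24 (log2 ± SE) and Dlg4 at -1.98 ± 0.14. In FMR1 KO occupancy 10 were lower and 2 higher (35.2% and 31.8% of all genes). The standard WT enrichment was called for 0 of 16, also at an unadjusted p under 0.05. The standard FMR1 KO enrichment was called higher for 7 of 16, where 10.1% of all genes were, including Ank3 (1.20 ± 0.21), Cntnap1 (1.49 ± 0.27), Dpp6 (1.20 ± 0.15) and Sptbn4 (1.38 ± 0.17). In that comparison 1 of 65 channel genes was called. The low nuclease WT enrichment was called higher for 11 of 19 partners (14.3% of all genes), and the low nuclease FMR1 KO enrichment for 2 of 18 (9.31% of all genes). In the WT pellet 12 of 17 partners were lower with the standard than with the low nuclease preparation (24% of all genes), and in the FMR1 KO pellet 2 of 18 (9.53% of all genes). No partner was called between genotypes in any library type, in occupancy or in enrichment, with at most 1 at an unadjusted p under 0.05 in each. Kcnd2, the pore subunit that Dpp6 joins in the A-type channel, was not called in the standard FMR1 KO enrichment, and the difference between them was not tested.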

How the data were processed

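Raw read counts per gene, deposited for all 36 libraries, were used as the authors made them with cutadapt 2.10, Bowtie2 2.3.5, STAR 2.7.8a, Picard, SAMtools 1.19.2 and featureCounts 2.2.0 on GRCm38, per the submitters' processing notes. Peak intervals with their height, a coverage signal, were deposited for the 12 standard RPF libraries. How featureCounts treated strand and overlapping genes is not given in the sources used here. All columns were mapped to a sample (0 unmapped). Cdk8 and 26 rows of non-coding biotypes (GENCODE M21) were left out, while 27 rows without an annotation match and 92 rows with a gene identifier but no gene name were kept. CPM were computed on what remained. Each comparison was fitted on its own groups with edgeR 4.0.16 (limma 3.58.1, R 4.3.3): filterByExpr, TMM, quasi-likelihood F-test, prior count 2, Benjamini-Hochberg over all genes tested, with 0.05 as the threshold; the SE is the log2 fold change divided by the square root of F. A change in occupancy or enrichment between genotypes is the interaction term. Alternatives were DESeq2 1.42.0, library size alone, no filter, Cdk8 kept, all 12 groups in 1 fit, a replicate block and leaving out each library. The script was tested on simulated counts. Total counts ran from 6765065 to 147216378 per library, so genes near 1 CPM in RPF libraries rest on few reads, and the floors given cover counting error only. Plots were drawn with matplotlib 3.10.9 in Python 3.11.15, and tables joined with pandas 2.3.3, scipy 1.17.1 and numpy 2.4.6.

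Genes named are the 12 with the highest mean CPM in WT RNA-seq and in the WT pellet, the 6 largest called rises and falls in each comparison, a list of genes tied to FMRP or of defining role, and, where none was called, the gene with the smallest p. A few others (Kcna3, Kcna4, Kcnf1, Kcnv1, Kcnj3, Kcnn1, Kcnn2 and the genes high in a single library) were chosen after their values were seen. The values of 4 genes are not reported here, though counts and medians include them. The members and lists were chosen with earlier results of these data known. Same-numbered libraries deviated together (r of 0.19, 0.12 and 0.21) in the low nuclease WT enrichment alone, so the number pairs the samples there. Windows were read from the GRCm38 genome of RefSeq.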

Additional observations from a re-analysis of the deposited data

How the results depend on the processing

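Counts of channel genes called in occupancy stayed within 1.5 times the reported values under each alternative: without single libraries they ran from 50 to 63 in WT and from 41 to 62 in FMR1 KO, with the replicate block they were 57 and 47, and over genes with at least 50 pellet counts (a filter chosen after seeing the data) 44 of 56 and 41 of 56 were called. For most of the alternative fits in this section the share of all genes called is not given, so their counts cannot be set against a background. The small counts of enrichment moved. WT enrichment was 1 in DESeq2, 2 with all 12 groups in 1 fit and 0 to 2 without single libraries. FMR1 KO enrichment was 0 with library size alone, in DESeq2, with every gene, with Cdk8 kept and with the replicate block, and 0 to 1 without single libraries. Low nuclease WT enrichment was 1 with library size alone, 18 in DESeq2, 26 with the replicate block and 0 to 9 without single libraries, and in FMR1 KO, where 0 were called, it was 2 with library size alone, 3 in DESeq2, 9 with the replicate block and 3 with all 12 groups (0 to 1 without single libraries). Between genotypes, all 12 groups in 1 fit gave 1 in the pellet, 1 in fraction 5/6, 2 in enrichment and 3 in the low nuclease pellet, and DESeq2 gave 1 in enrichment; without single libraries these counts were 0 throughout. The pellet contrast of preparations ran from 31 to 56 in WT without single libraries (56 with the replicate block) and from 2 to 44 in FMR1 KO, where library size alone gave 50, DESeq2 35, all 12 groups 31 and the replicate block 13. Signs turned for Kcnab3 (-0.54) and Kcnab1 (-0.61) in WT occupancy and Kcnip4 (-0.77) in low nuclease RNA-seq with library size alone, for Kcnip4 (-0.99) without the 3 dominated libraries, and for Kcnk5 (-0.42) in FMR1 KO occupancy without pellet replicate 2. Values that were not called lay near 0 and also changed sign. With library size alone these were, in WT occupancy, Kcna4 (-0.99), Kcnf1 (-1.09), Kcnk9 (-1.14) and Kcnv1 (-0.63), and Kcnma1 (-0.0064) in the pellet between genotypes. With at least 50 pellet counts they were Kcnf1 (-0.0308) and Kcnk9 (-0.0802), with all 12 groups Kcnk9 (-0.0367) and, between preparations in WT, Kcnab1 (0.0282, and 0.0157 in DESeq2), with every gene Kcnma1 (-0.0006) between genotypes, and with the replicate block Kcnt1 (0.0038) between genotypes and Kcnab2 (1.57) between preparations in FMR1 KO. Without single libraries, WT occupancy ran from -0.17 to 0.35 for Kcna4, -0.21 to 0.33 for Kcnf1, -0.82 to 0.11 for Kcnip4 and -0.44 to 0.33 for Kcnk9, and Kcnk5 in FMR1 KO from -0.42 to 5.09. The pellet difference between genotypes ran from -0.18 to 0.16 for Kcnd2, -0.13 to 0.22 for Kcnma1, -0.48 to 0.14 for Kcnmb4 and -0.26 to 0.28 for Kcnt1, and the difference between preparations from -0.10 to 0.08 for Kcnab1 in WT and -1.17 to 3.88 for Kcnab2 in FMR1 KO. The causes were not tested, beyond the fewer samples of the left-out fits. In the other comparisons the numbers did not pair the samples, and the block changed no call between genotypes. Pellet levels under about 1 CPM rest on few reads, which limits what can be said of the least abundant channels.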
